A study of Mus musculus with 6 samples.

Results

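Pancreatic islets store their hormones in dense-core secretory granules. Described here are 10 genes of these granules: the prohormone convertases Pcsk1 and Pcsk2, carboxypeptidase E (Cpe), the granins Chga, Chgb, Scg2, Scg3 and Vgf, and the convertase partners Scg5 and Pcsk1n. Members were all probe sets that the platform annotation assigned to 1 of these symbols alone, which gave 10 probe sets of 45101 on the array. They covered 9 of the 10 genes, of 18194 genes that the annotation named for at least 1 probe set. Pcsk2 is not analysed here. Of these, 8 genes had 1 probe set each, and Cpe had 2, of which the dimmer lay below the brightness filter.

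The islets came from male OF-1 mice, an outbred strain, with a wild-type genotype, at postnatal day 30. The mothers received either vehicle or bisphenol-A (BPA), a building block of plastics that acts like a weak estrogen, on gestation days 9 to 16. The doses were 10 µg/kg/day (group BPA10) and 100 µg/kg/day (group BPA100). Each group had 2 arrays: vehicle replicate 1 carried RNA of 5 mice, vehicle replicate 2 and BPA10 replicate 1 of 1 mouse each, BPA10 replicate 2 of 2 mice, and each BPA100 array of 1 mouse. The exposure was before birth, the litters are not given, and p-values therefore measure only the spread between arrays.

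A prohormone enters the granule as a long chain. Pcsk1 and Pcsk2 cut it after paired basic residues, Cpe trims those residues from the new ends, and granins aggregate in the acidic, calcium-rich lumen and help to condense the cargo. Scg5 (7B2) is the chaperone that lets Pcsk2 mature, and Pcsk1n (proSAAS) is an inhibitor of Pcsk1. In islets the cargo includes insulin, glucagon, somatostatin, pancreatic polypeptide and amylin.

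Several of these genes are known as targets of cyclic AMP signalling through the cyclic AMP response element (CRE), so the promoters of the members were read for it. RefSeq promoter windows of build GRCm38.p6, with 250 bases before and 50 bases after the transcription start, were given for 7 of the 9 measured genes (not for Cpe and Vgf). The full CRE, TGACGTCA, which reads the same on both strands, was found in 3 of 7 windows, those of Scg2, Chgb and Pcsk1, against 1.79% of 32851 windows of the same length. The shorter core TGACG, which the full CRE contains, was found on either strand in 6 of 7, all but Pcsk1n, against 20.8%. The E-box CANNTG was found in 5 of 7 windows against 72.3%, and TATAAA in 1 of 7, that of Chga, against 13.6%. The TATAAA of Chga began at base +6, after the transcription start and not before it. Sequences follow only for the CRE or its core. Shown for where this motif lies are 100 bases before the start of Scg2 (chr1:79440027-79440126, minus strand), Chgb (chr2:132781542-132781641, plus strand) and Chga (chr12:102554841-102554940, plus strand), and 30 bases around the motif of Pcsk1 (chr13:75089768-75089797, plus strand), with the CRE, or for Chga its core, in capitals:
Scg2: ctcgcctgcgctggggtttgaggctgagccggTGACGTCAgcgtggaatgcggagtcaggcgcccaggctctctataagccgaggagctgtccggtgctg
Chgb: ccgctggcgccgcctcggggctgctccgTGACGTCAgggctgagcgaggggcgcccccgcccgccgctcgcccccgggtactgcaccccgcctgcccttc
Chga: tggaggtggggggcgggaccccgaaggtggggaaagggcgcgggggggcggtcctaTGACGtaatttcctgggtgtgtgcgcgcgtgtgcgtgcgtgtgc
Pcsk1: ccaggtagatcTGACGTCAagagatggctt
The first base of the capitals lay 68 bases before the start in Scg2, 72 in Chgb, 78 in Pcsk1 and 44 in Chga. A match is a description of the letters and shows no binding.

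Each probe set has 1 MAS5 signal per array in arbitrary units, and differences are given between group means of log2(signal + 1), so that 1 is a doubling. In short, Cpe, Chga, Scg2 and Scg3 were higher on both BPA10 arrays than on both vehicle arrays, by 0.14 to 0.33. The same held for 17.5% of all tested probe sets. Vgf was lower on both BPA10 arrays, by 0.53, as were 18.6% of all tested probe sets. After quantile normalization, which gives all arrays one distribution of values, those 4 were lower in BPA10, by 0.05 to 0.16 in size, and Vgf by 0.55. On the BPA100 arrays 8 of the 9 genes had a higher mean than in vehicle, by at most 0.23, but 3 were higher and 6 lower after quantile normalization. No gene passed the test in any comparison. The 6 brightest members are among the brightest probe sets of the array, and other probe sets of that brightness were higher on the same arrays.

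Over the series, the 6 arrays correlated with each other at 0.945 to 0.975 across 27022 tested probe sets, and at 0.968 within each group. With limma, 0 of 27022 probe sets (percent called 0) had an adjusted p under 0.05 in any of 4 comparisons. At an unadjusted p under 0.05 there were 1914 for BPA10 and 1075 for BPA100 against vehicle, 1283 between the doses and 1537 for both doses against vehicle. Of 10 beta-cell markers 8 were tested and all 8 were brighter than the 90th percentile of all probe sets. Of 9 alpha- and delta-cell markers 7 were tested, with 4 above that percentile and Irx1 the dimmest. Of 15 markers of the acinar cells of the exocrine pancreas 12 were tested, with 10 above it, none listed at 0, and summed signals of 51659 to 77178 in vehicle, 99202 to 105883 in BPA10 and 68078 to 102461 in BPA100. In whole islets, fewer cells of a type and less RNA per cell cannot be told apart.

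**Figure D1:**
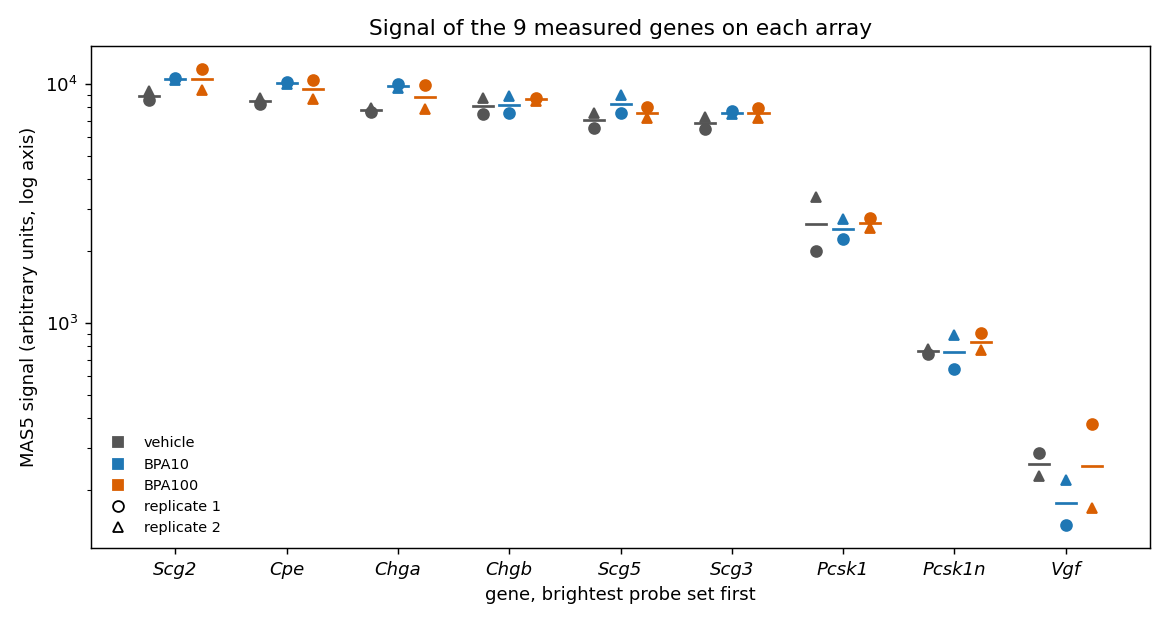
MAS5 signal (log axis) of the 9 measured genes on each of the 6 arrays, with points for arrays and bars for the group mean of log2(signal + 1). Cpe, Chga, Scg2 and Scg3 lie higher on both BPA10 arrays than on both vehicle arrays, as do 17.5% of all tested probe sets. The vehicle arrays of Pcsk1 lie at 2000 and 3365, and Vgf runs from 142 to 379.

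Pcsk1, the convertase that makes the first cuts in proinsulin, had signals of 2000 and 3365 on the vehicle arrays, 2251 and 2729 on the BPA10 arrays, and 2756 and 2501 on the BPA100 arrays. The vehicle arrays were the lowest and the highest of the 6, so all 4 BPA arrays lay between them. The difference was -0.07 ± 0.23 (SE; 95% interval -0.58 to 0.45; adjusted p = 0.966, 2 arrays per group) in BPA10 and 0.02 ± 0.23 (-0.50 to 0.53; adjusted p = 1) in BPA100. Both values turned on which vehicle array was used: without vehicle replicate 1 they were -0.44 and -0.36, and without vehicle replicate 2 they were 0.31 and 0.39.

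Cpe, the exopeptidase that removes the basic residues left by the convertases, had signals of 8290 and 8743 in vehicle, 10187 and 10017 in BPA10, and 10399 and 8711 in BPA100. Both BPA10 arrays were above both vehicle arrays, as for 17.5% of all tested probe sets, whereas BPA100 replicate 2 lay between the vehicle arrays. The difference was 0.25 ± 0.13 (1.19-fold; 95% interval -0.04 to 0.54; adjusted p = 0.747) in BPA10 and 0.16 ± 0.13 (-0.13 to 0.45; adjusted p = 1) in BPA100. The BPA100 value was 0.03 without BPA100 replicate 1 and 0.29 without BPA100 replicate 2. The dimmer Cpe probe set read 8 and 7 in vehicle, 42 and 17 in BPA10, and 18 and 33 in BPA100, around the filter's limit of 23.3. With no filter it differed by 1.71 ± 0.58 (adjusted p = 0.764) and 1.58 ± 0.58 (adjusted p = 1). These were larger values in the same direction as those of the bright one, but from dim signals. The unadjusted limma p-values of this dim probe set were 0.0226 in BPA10 and 0.031 in BPA100.

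Chga, chromogranin A, a granin that drives granule formation and is itself cut into peptides, had signals of 7679 and 7956 in vehicle, 9994 and 9673 in BPA10, and 9935 and 7890 in BPA100. The 2 arrays agreed closely in vehicle and in BPA10. Both BPA10 arrays lay above both vehicle arrays, as for 17.5% of all tested probe sets. The BPA100 arrays stood apart from each other, 1 with the BPA10 arrays and 1 with vehicle. The difference in BPA10 was 0.33 ± 0.14 (1.26-fold; 95% interval 0.02 to 0.64). It became -0.05 after quantile normalization. With the authors' scaling its unadjusted limma p was 0.0403, the smallest of the 9 tested member probe sets and the only one under 0.05. Its adjusted p was 0.687. In BPA100 it was 0.18 ± 0.14 (-0.13 to 0.49; adjusted p = 1), falling to 0.01 without BPA100 replicate 1 and reaching 0.35 without BPA100 replicate 2.

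Chgb, chromogranin B, had signals of 7526 and 8745 in vehicle, 7574 and 8892 in BPA10, and 8801 and 8538 in BPA100. The vehicle and BPA10 arrays covered nearly the same range. The difference was 0.02 ± 0.13 (95% interval -0.29 to 0.32; adjusted p = 0.987) in BPA10 and 0.10 ± 0.13 (-0.21 to 0.40; adjusted p = 1) in BPA100.

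Scg2, secretogranin II, the precursor of secretoneurin, had signals of 8586 and 9356 in vehicle, 10620 and 10399 in BPA10, and 11617 and 9506 in BPA100. Among the tested member probe sets it was the only one with all 4 BPA arrays above both vehicle arrays. This pattern was shown by 7.17% of all tested probe sets, and also by the dimmer Cpe probe set below the filter. The difference was 0.23 ± 0.13 at each dose (1.17-fold; 95% interval -0.08 to 0.53), with adjusted p = 0.784 in BPA10 and adjusted p = 1 in BPA100. In BPA100 it was 0.08 without BPA100 replicate 1, 0.37 without BPA100 replicate 2 and 0.03 after quantile normalization.

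Scg3, secretogranin III, which tethers Chga to the granule membrane, had signals of 6488 and 7298 in vehicle, 7722 and 7496 in BPA10, and 7927 and 7236 in BPA100. Both BPA10 arrays lay above vehicle, as for 17.5% of all tested probe sets, and BPA100 replicate 2 lay just under vehicle replicate 2. The difference was 0.14 ± 0.12 at each dose (95% intervals -0.13 to 0.42 and -0.14 to 0.41), with adjusted p = 0.846 in BPA10 and adjusted p = 1 in BPA100. Without vehicle replicate 1 the values were 0.06 and 0.05, without vehicle replicate 2 they were 0.23 and 0.22, and in BPA100 it was 0.07 without BPA100 replicate 1.

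Vgf, a granin-like precursor that neurotrophins induce in neurons, was the dimmest of the 9 probe sets used and the most variable. Its signals were 286 and 229 in vehicle, 142 and 219 in BPA10, and 379 and 168 in BPA100. Both BPA10 arrays lay below both vehicle arrays, by a narrow gap between 219 and 229, as for 18.6% of all tested probe sets. The BPA100 arrays were the highest and the second lowest of the 6. The difference was -0.53 ± 0.36 (1.45-fold lower; 95% interval -1.37 to 0.30; adjusted p = 0.812) in BPA10 and -0.02 ± 0.36 (-0.85 to 0.81; adjusted p = 1) in BPA100. The BPA100 value was -0.60 without BPA100 replicate 1 and 0.56 without BPA100 replicate 2. Against BPA10, Vgf in BPA100 differed by 0.51 ± 0.36 (-0.32 to 1.35; adjusted p = 0.964), and by -0.07 without BPA100 replicate 1.

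Scg5, the Pcsk2 chaperone 7B2, had signals of 6579 and 7602 in vehicle, 7549 and 9008 in BPA10, and 7999 and 7221 in BPA100. The groups overlapped, with BPA10 replicate 1 just under vehicle replicate 2. The difference was 0.22 ± 0.14 (95% interval -0.10 to 0.54; adjusted p = 0.799) in BPA10 and 0.10 ± 0.14 (-0.22 to 0.42; adjusted p = 1) in BPA100.

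Pcsk1n, the precursor of the Pcsk1 inhibitor proSAAS, had signals of 743 and 778 in vehicle, 642 and 894 in BPA10, and 905 and 771 in BPA100. The vehicle arrays were close together, and the BPA10 arrays enclosed them. The difference was -0.01 ± 0.18 (95% interval -0.41 to 0.40; adjusted p = 0.997) in BPA10 and 0.14 ± 0.18 (-0.27 to 0.54; adjusted p = 1) in BPA100.

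As a group in BPA10 against vehicle, 6 members had a higher mean and 3 a lower one, with a median difference of 0.14, against a median of 8e-04 and 50.1% higher over all tested probe sets. After quantile normalization 1 was higher and 8 lower with a median of -0.14, the median was -0.01 on arrays of 1 mouse only, and it ran from 0.06 (without vehicle replicate 1) to 0.29 (without vehicle replicate 2) with each array left out. For 4 members (Cpe, Chga, Scg2, Scg3) the arrays did not overlap, with both BPA10 arrays above both vehicle arrays, as for 17.5% of all tested probe sets, and for 1 member (Vgf) both lay below, as for 18.6%. In BPA100 against vehicle, 8 were higher and 1 lower with a median of 0.14, against -0.0047 and 49.1% higher over all probe sets. After quantile normalization 3 were higher and 6 lower with a median of -0.01, and the median ran from 0.03 without BPA100 replicate 1 to 0.25 without BPA100 replicate 2. There 1 tested member probe set (Scg2) had both BPA100 arrays above both vehicle arrays, as for 16.1% of all tested probe sets. Both comparisons use the same vehicle arrays, so their likeness is not independent.

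**Figure D2:**
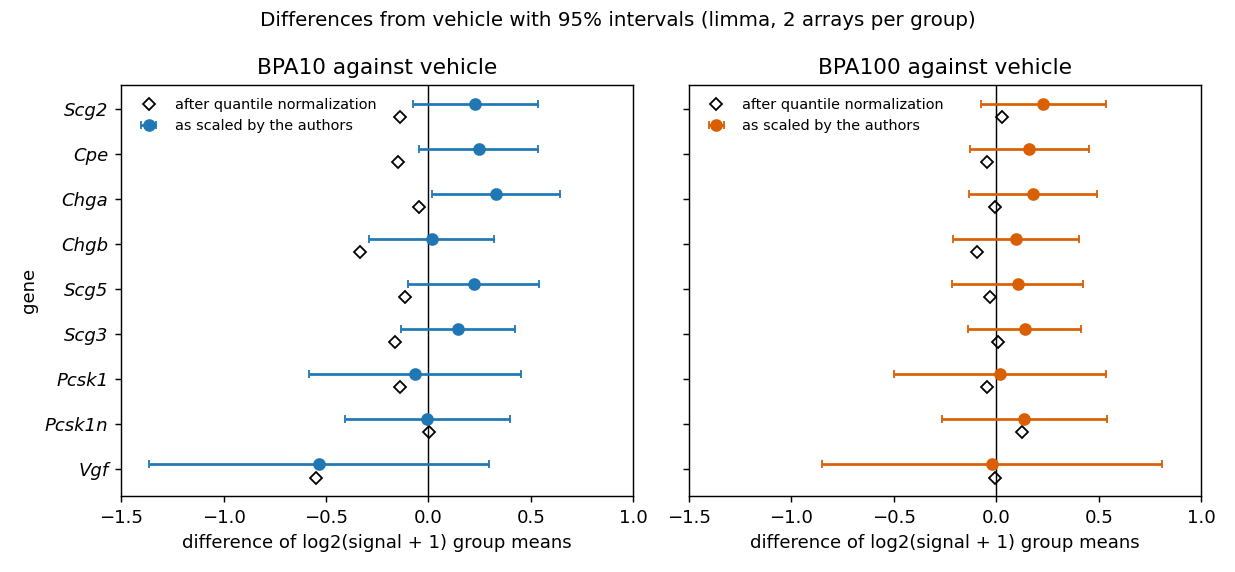
Difference of log2(signal + 1) group means from vehicle for each gene, with 95% limma intervals (filled points) for BPA10 on the left and BPA100 on the right, and the value after quantile normalization (open diamonds). For Chga in BPA10 the interval is 0.02 to 0.64, the other intervals cover 0, and quantile normalization moves the bright genes to or below 0 in BPA10, as for Scg2 from 0.23 to -0.14.

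In BPA100 against BPA10, 4 members were higher and 5 lower, with a median of 0.00 and a range from -0.15 (Chga) to 0.51 (Vgf). After quantile normalization 9 were higher and 0 lower with a median of 0.13, and after median centring 6 were higher. No member had both BPA100 arrays above both BPA10 arrays, against 15.7% of all tested probe sets. None had both below either, and the share of all probe sets in that direction was not computed. Adjusted p-values ran from 0.964 to 1. A moderated F test over the 3 groups gave adjusted p-values of 0.943 (Chga) to 0.993 (Pcsk1), with 0 of 27022 probe sets called and 1412 at an unadjusted p under 0.05. With both doses pooled against vehicle, 7 members were higher and 2 lower with a median of 0.14 (1 and 8 with a median of -0.08 after quantile normalization; a median of -0.0052 on arrays of 1 mouse only). Chga differed by 0.26 ± 0.12 (adjusted p = 0.88), Vgf by -0.28 ± 0.31 (adjusted p = 0.94), and Scg2 differed by 0.23 ± 0.12 (adjusted p = 0.889).

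The 6 members Scg2, Cpe, Chga, Chgb, Scg5 and Scg3 were so bright that only 0.0289% to 0.149% of non-control probe sets were brighter. Signals of different probe sets depend on their sequences too and do not rank the RNA amounts of these genes. Other probe sets of that brightness were higher as well. The 62 non-member probe sets at least as bright as Scg3, chosen after values were seen, had median differences of 0.31 in BPA10 and 0.21 in BPA100. In BPA10, 62 of 62 were higher, and 60 of 62 had both arrays above vehicle (17.5% of all tested probe sets). In BPA100, 61 of 62 were higher, and 26 of 62 had both arrays above vehicle (16.1% of all tested probe sets). The 6 bright members had medians of 0.23 and 0.15 with 6 of 6 higher, and 5 of 6 lay below the median of the 62 at each dose. Of the 62, 11 belonged to acinar markers and 6 to prohormone genes. Without the acinar markers, the other 51 had medians of 0.27 and 0.18, with 51 and 50 higher.

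**Figure D3:**
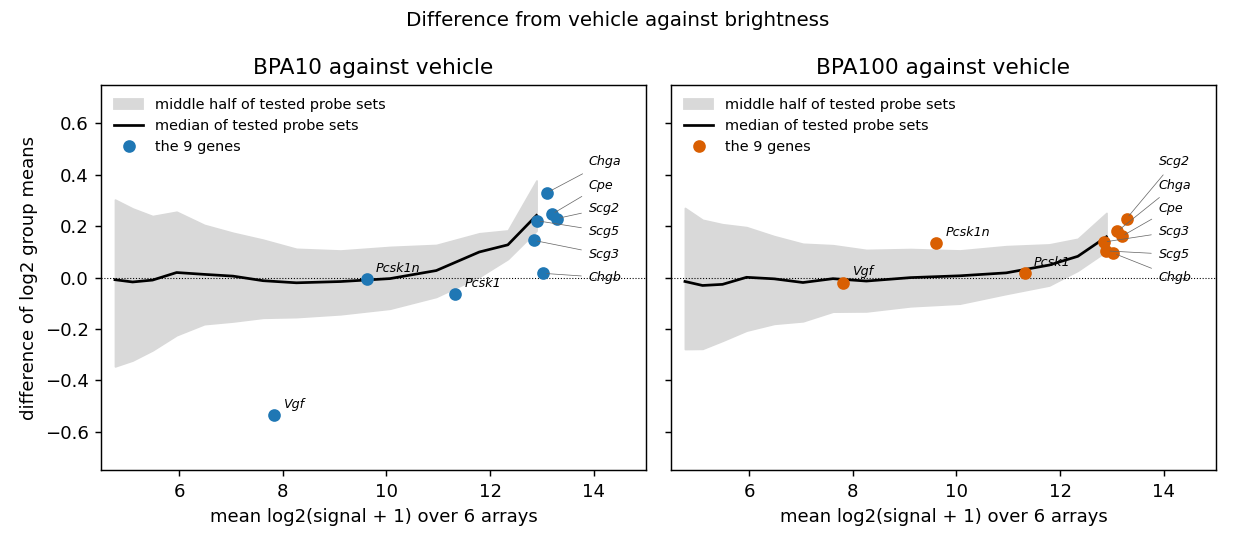
Difference from vehicle (log2) against mean log2(signal + 1) over the 6 arrays, with the median (line) and interquartile range (grey) of all tested probe sets in brightness bins and the 9 genes as points. The line runs near 0 for dim probe sets and reaches 0.24 in the brightest bin in BPA10, where the 6 bright genes lie between 0.02 and 0.33.

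Array by array, the median of the 9 members relative to their vehicle mean was -0.06 and 0.06 in vehicle, 0.09 and 0.21 in BPA10, and 0.25 and 0.03 in BPA100. The 62 bright probe sets stood at 0.01 and -0.01, 0.37 and 0.29, and 0.33 and 0.05 on the same arrays. The mean of 12 acinar markers stood at 0.37 and -0.37, 1.18 and 0.97, and 0.94 and 0.17, with 12 of 12 higher at each dose. By the median, BPA100 replicate 2 was the lowest of the 4 BPA arrays in members and in bright probe sets. By the mean over the 9 members, BPA10 replicate 1 (-0.03) and BPA100 replicate 2 (-0.04) were alike, against 0.16 on BPA10 replicate 2 and 0.27 on BPA100 replicate 1, and 5 and 8 of the 9 lay above their vehicle mean on the BPA10 arrays and 9 and 7 on the BPA100 arrays. The part of acinar RNA or of array scaling in the members' differences was not tested. Quantile normalization left the 62 bright probe sets with medians of -0.06 and 0.02. Centring each array on its median gave 7 and 9 members higher.

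**Figure D4:**
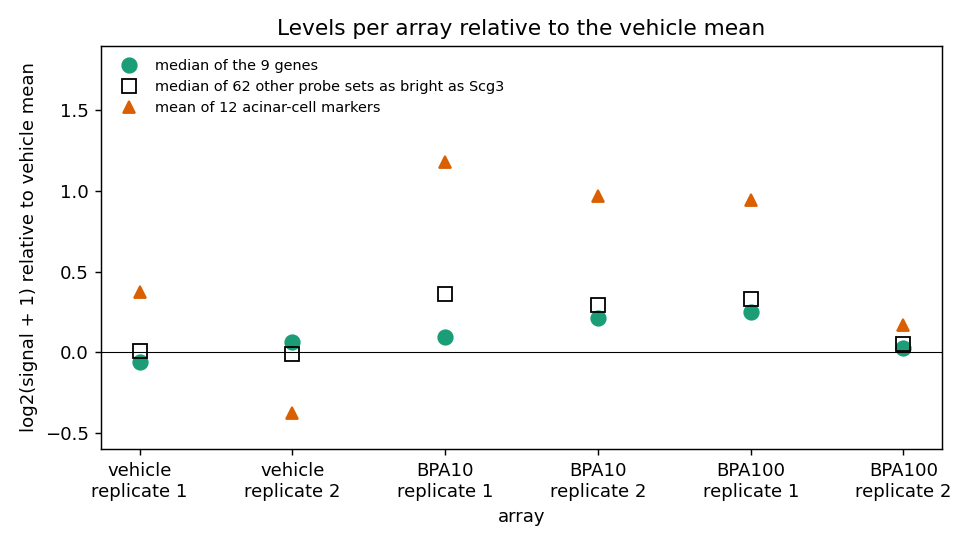
Log2(signal + 1) relative to the vehicle mean on each of the 6 arrays, as the median of the 9 genes (circles), the median of 62 other probe sets as bright as Scg3 (squares) and the mean of 12 acinar-cell markers (triangles). All 3 are above 0.05 on both BPA10 arrays and BPA100 replicate 1, and BPA100 replicate 2 has 0.03, 0.05 and 0.17.

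The other genes of the pathway were read from lists, in which no gene passed at either dose. Of 14 tested prohormone genes, the cargo of the members, 12 were higher and 2 lower in BPA10 (6 and 8 after quantile normalization) and 10 were higher and 4 lower in BPA100 (6 and 8 after quantile normalization). Ins2, an insulin gene, had signals of 3546 and 3552 in vehicle, 4873 and 4797 in BPA10, and 4139 and 2680 in BPA100. It differed by 0.45 ± 0.19 (adjusted p = 0.688) and -0.09 ± 0.19 (adjusted p = 1), and it kept its BPA10 direction after quantile normalization (0.30). The precursors of glucagon (Gcg), pancreatic polypeptide (Ppy), amylin (Iapp) and somatostatin (Sst) differed by 0.38, 0.41, 0.30 and 0.25 in BPA10 and by 0.17, 0.16, 0.20 and 0.25 in BPA100. Quantile normalization turned these to between -0.13 and -0.01 in BPA10 and, for all but Sst, to below 0 in BPA100, and the 3 other Iapp probe sets lay between -0.81 and 0.15 in BPA10.

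Cartpt and Npy, precursors of regulatory peptides that some islet cells make, had the smallest p-values of this list in BPA100. Cartpt had signals of 150 and 223 in vehicle, 256 and 193 in BPA10, and 85 and 103 in BPA100, and Npy of 410 and 567, 544 and 459, and 269 and 338. Both BPA100 arrays lay below all 4 others for each gene, as for 5.02% of all tested probe sets. Cartpt differed from vehicle by -0.96 ± 0.24 (unadjusted p = 0.00402) and Npy by -0.68 ± 0.20 (unadjusted p = 0.00886), each with adjusted p = 1. After quantile normalization the values were -0.93 and -0.67. Markers of some other cell types were also mostly lower in BPA100 than in vehicle. These were 10 of 11 stellate-cell and fibroblast, 6 of 6 duct and 5 of 7 neural and Schwann markers (10, 6 and 7 against BPA10). Also lower were 7 of 9 macrophage and 5 of 7 endothelial markers, but their summed signals did not separate the groups. Those of macrophage markers were 2331 and 1114 in vehicle, and 1162 and 1169 in BPA100. Those of endothelial markers were 3105 and 3355 in vehicle, and 3196 and 3127 in BPA100. Over all tested probe sets 49.1% were higher in BPA100. Higher than in vehicle were 12 of 12 acinar, 7 of 7 alpha- and delta-cell and 6 of 8 beta-cell markers (12, 6 and 5 after quantile normalization). The part of these cell types was not tested.

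Of 6 tested convertases outside the regulated pair, 2 were higher and 4 lower in BPA10, and 0 higher and 6 lower in BPA100 (2 higher and 4 lower after median centring). Pcsk4, a convertase known from germ cells, had signals of 39 and 52 in vehicle, 24 and 24 in BPA10, and 29 and 26 in BPA100, dim values that differed by -0.88 ± 0.33 (adjusted p = 0.68) and -0.69 ± 0.33 (adjusted p = 1). Furin, the convertase of the constitutive pathway, differed by -0.26 ± 0.16 (adjusted p = 0.792) in BPA10, and Pcsk7 by -0.15 ± 0.17 (adjusted p = 1) in BPA100.

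Of 10 tested enzymes that finish peptides, 3 were higher and 7 lower in BPA10 (2 and 8 after quantile normalization, 5 and 5 after median centring) and 4 were higher and 6 lower in BPA100. The carboxypeptidase-like gene Cpxm2 differed by 0.79 ± 0.39 and 0.61 ± 0.39 at a signal of 16 to 41, and its other probe set by 0.59 and 0.42. Rnpep, aminopeptidase B, differed by 0.33 ± 0.20 in BPA10, and Qpct, which closes N-terminal glutamine to pyroglutamate, by -0.38 ± 0.26 in BPA100.

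Of 8 tested granule membrane proteins, 6 were higher and 2 lower in BPA10 and 4 and 4 in BPA100. Slc30a8, the zinc transporter of insulin granules, differed by 0.22 ± 0.13 and 0.19 ± 0.13 (0.06 and 0.11 after quantile normalization). Both groups of BPA arrays lay above vehicle (4139 and 4517 against 4655 and 5456, and 4604 and 5286), as for 7.17% of all tested probe sets. Cltrn, collectrin, differed by 0.13 ± 0.11 (-0.17 after quantile normalization) and 0.15 ± 0.11. Of 17 tested proton pump and chloride transport genes, which acidify the granule, 8 were higher and 9 lower at each dose (5 and 12, and 7 and 10, after quantile normalization; 11 and 6, and 13 and 4, after median centring). The pump's accessory subunit Atp6ap2 differed by 0.22 ± 0.12 at each dose, turning to -0.04 in BPA10 after quantile normalization. Atp6v1c1 differed by 0.21 ± 0.13 in BPA10 and Atp6v1g1 by 0.19 ± 0.12 in BPA100, where the other Atp6v1g1 probe set gave -0.02.

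Of 19 genes of granule biogenesis, 14 were higher and 5 lower in BPA10 (13 and 6 after quantile normalization) and 12 and 7 in BPA100 (15 and 4 after median centring). Vps53, a subunit of vesicle-tethering complexes, had signals of 470 and 460 in vehicle, 769 and 766 in BPA10, and 365 and 637 in BPA100. It differed by 0.72 ± 0.23 (unadjusted p = 0.0135, adjusted p = 0.639) in BPA10, but its 2 other probe sets gave -0.09 and 0.12. Arfip1, a membrane-curving protein of the Golgi, differed by 0.27 ± 0.12 in BPA10. Gga1 and Gga3, clathrin adaptors of the trans-Golgi network, differed by -0.57 ± 0.36 and -0.23 ± 0.17 in BPA100, and Gga1 read 102 on BPA100 replicate 2 against 206 to 275 on the other 5 arrays.

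The probe sets whose pattern over the 6 arrays was most like the mean of the 9 members, among 23229 tested probe sets of other genes, were those of Acad11 (Pearson r = 0.996), Mus81 (0.993), Serf2 (0.986), Trpc4ap (0.981) and Aaas (0.981). These are descriptions over 6 arrays that share their scaling, and the probe sets were picked for this likeness. The mean is moved most by the members of widest log2 range, Vgf (1.41) and Pcsk1 (0.75). The other members range over 0.24 (Chgb) to 0.49 (Pcsk1n). Acad11, an acyl-CoA dehydrogenase, had signals of 532 and 599 in vehicle, 547 and 620 in BPA10, and 679 and 550 in BPA100, so that within each group the same array was the higher one as in the members' mean.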

How the data were processed

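Per the labels' protocols, RNA of 6 islet samples was amplified in 2 rounds and hybridised to Affymetrix arrays. The authors deposited intensities, 1 linear signal for each probe set on each array, from MAS5, as the submitters' processing notes say; its version is not given in the sources used here. In the values, every array's mean without its extreme 2% was 150.0, so signals are relative to the rest of the array. No genome build enters them.

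Values were taken as log2(signal + 1), which understates changes of dim probe sets. Probe sets at or above the 40th percentile of mean log2 value were tested (27022, for 13193 genes). limma 3.58.1 in R 4.3.3 fitted 3 group means to all 6 arrays with an intensity trend (3 residual and 5.4 prior degrees of freedom), 2-sided, with Benjamini-Hochberg adjustment over all tested probe sets and a threshold of 0.05. The fit was tested on simulated data with a common spread and planted differences larger than any of the members'. That simulation therefore does not show whether differences of the members' size would be found. Permutation of labels could give no p below 0.333 (2 against 2 arrays) or 0.0667 (4 against 2), so none is given. With so few arrays the median SE was 0.24, which limits the precision.

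A gene is represented by its brightest tested probe set. Of 45037 non-control probe sets the annotation gave 1 gene to 34945, several to 932 and none to 9160. Named genes are all members, the 2 genes of smallest p per list and comparison with vehicle, the main islet prohormones (Ins1 is not analysed here), and the 5 probe sets most like the members' mean. Pyy, Penk and Ucn3 were named outside this rule, after their values were seen. The members and lists were chosen with earlier results of these data known, and a fit planned for 10 members was made for 9. Promoters are those of RefSeq. Alternatives were quantile normalization, median centring, log2(signal + 16), the filter at the 60th percentile or left out, a spread without intensity trend or with a robust prior, the replicate number as a block, only arrays of 1 mouse, only the groups compared, each array left out, and the mean of a gene's tested probe sets.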

Additional observations from a re-analysis of the deposited data

How the results depend on the processing

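No member passed under any alternative: of 144 values in each comparison with vehicle, 128 kept their direction and 16 reversed, with smallest adjusted p-values of 0.454 in BPA10 and 0.909 in BPA100, and the 16 values of Vgf between doses had a smallest adjusted p of 0.717 and 1 reversal. Many of the kept directions were fixed in advance. The filters, the spread options, the replicate block and only the groups compared cannot alter a difference. Neither can leaving out an array of a group that is not compared. The causes of the reversals were not tested. After quantile normalization the median over members moved to -0.14 in BPA10 and -0.078 with both doses together. That setting reversed Chga (-0.048), Chgb (-0.33), Cpe (-0.15), Scg2 (-0.14), Scg3 (-0.16), Scg5 (-0.11) and Pcsk1n (0.0015) in BPA10, and Chga (-0.0075), Chgb (-0.094), Cpe (-0.045), Pcsk1 (-0.043) and Scg5 (-0.030) in BPA100. Median centring reversed Pcsk1n in BPA10 (0.018) and Vgf in BPA100 (0.017). Only arrays of 1 mouse gave Chgb -0.21 and Scg5 -0.010 in BPA10, and Chgb -0.013, Pcsk1 -0.36, Scg5 -4e-04 and Vgf 0.14 in BPA100.

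With each array left out, BPA10 values ran from -0.10 to 0.13 for Chgb (below 0 without vehicle replicate 1 or BPA10 replicate 2), -0.44 to 0.31 for Pcsk1 (above 0 without vehicle replicate 2 or BPA10 replicate 1) and -0.24 to 0.23 for Pcsk1n (above 0 without the same arrays). BPA100 values ran from -0.013 to 0.20 for Chgb, -0.36 to 0.39 for Pcsk1, -4e-04 to 0.21 for Scg5 and -0.60 to 0.56 for Vgf. The first 3 were below 0 without vehicle replicate 1, Pcsk1 also without BPA100 replicate 1, and Vgf was above 0 without vehicle replicate 1 or BPA100 replicate 2. The median over members ran from 0.06 to 0.24 for both doses, lowest without vehicle replicate 1 and highest without vehicle replicate 2, and from -0.07 to 0.10 between doses, without BPA100 replicate 1 and 2. Vgf between doses ran from -0.070, without BPA100 replicate 1, to 1.10.

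Probe sets called over the whole array, 0 in each comparison, numbered 0 to 9 in BPA10, 0 to 5 in BPA100, 0 to 1 between doses and 0 to 7 for both doses with an array left out. The largest counts came without vehicle replicate 1 (9, 5 and 7), and the 1 between doses without BPA10 replicate 2. Median centring called 6 in BPA100 and 1 for both doses, and only the groups compared called 1 in BPA10 and 4 in BPA100. The replicate number as a block called 7 in BPA100, 1 for both doses, 2 by the F test and 0 in the other comparisons. It left the members' medians at 0.14, 0.14 and 0.14 against vehicle, which a block balanced over the groups cannot move. Replicate numbers are not stated to pair arrays and are not taken as pairs. Arrays of the same number correlated in their deviations from group means at 0.19 (vehicle and BPA10), 0.20 (vehicle and BPA100) and 0.08 (BPA10 and BPA100). With 2 arrays per group these values cannot show whether the numbers mark pairs. The mean over a gene's tested probe sets gave the same values, as no member had 2 tested. With an array left out, the lone array of a group is assumed to vary like the others.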

Other observations

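Some further prohormone genes of the cargo list, chosen after their values were seen, were read as values, and none passed with limma. Pyy, the precursor of peptide YY, had signals of 7972 and 9047 in vehicle, 9878 and 10243 in BPA10, and 10195 and 8880 in BPA100, a difference of 0.24 ± 0.13 in BPA10 that became -0.13 after quantile normalization, as for the bright granins. Penk, the enkephalin precursor, had 123 and 89 in vehicle, 243 and 127 in BPA10, and 149 and 75 in BPA100, and differed by 0.74 ± 0.39 (adjusted p = 0.754) and 0.02 ± 0.39 (adjusted p = 1). Ucn3, a maturity marker of beta cells, had 1367 and 2365 in vehicle and 2275 and 2709 in BPA100, a difference of 0.47 ± 0.26 (adjusted p = 1) with overlapping arrays.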
